A study of Mus musculus with 6 samples.

Results

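The genes described here encode kinesins, cytoplasmic dynein and dynactin, the motors that move cargo along microtubules, and were measured in primary mouse cortical neurons with Ribo-STAMP. In this assay rAPOBEC1, a cytidine deaminase that turns C into U in RNA, is fused to a ribosomal protein, so that RNAs in contact with ribosomes collect edits. The members were taken by a naming rule: protein-coding mouse genes whose symbol starts with Kif, Kifc or Dync and a number or with Dynll, Dynlr or Dynlt. *Kifap3*, *Klc1* to *Klc4* and *Dctn1* to *Dctn6* were included as well. The rule reads names and no measured value, but it was chosen with earlier results of these data known. The members were 70 of the 31053 genes listed in each library. There were 6 bulk RNA-seq libraries, 3 from neurons that expressed RPL10A-STAMP and 3 from neurons that expressed RPL22-STAMP, in which the deaminase is joined to mouse RPL10A or RPL22, proteins of the large ribosomal subunit. Every culture came from cortices of E18 C57BL/6J embryos labelled WT, was plated at 600000 cells per well, received Floxuridine at DIV 3 against dividing cells, was infected with AAV at DIV 6 and was collected at DIV 14 after 48 h of Dox at 1 µg per ml. All 6 libraries therefore share Dox and the deaminase. The groups differ in the ribosomal protein and in the end of the deaminase that carries it, the C terminus for RPL10A and the N terminus for RPL22, and these differences cannot be told apart. The synapsin promoter drives rtTA, the Dox-dependent activator, so the fusion is made in infected neurons, whereas reads come from every cell of the well. No library without the deaminase was analysed here, and the background of C-to-U calls in these genes is unknown. The sources call the replicates biological in some places and technical in another, and if they were not separate cultures the p-values measure technical spread alone.

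Most kinesins walk towards the plus ends of microtubules and carry vesicles, mitochondria and RNA granules out of the cell body into the axon. Cytoplasmic dynein, activated by the dynactin complex and by adaptor proteins, walks towards the minus ends and returns cargo to the cell body. Both motors are built from heavy chains that hold the motor domain and from smaller chains that bind cargo or hold the complex together, and a further set of kinesins works in the spindle of dividing cells.

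The deposited value is the EPR, the number of edits in a gene divided by the number of its reads. It is not an RNA level, how many reads a value rests on is unknown, and a value of 0 can mean no edits or no reads. Genes are called edited where this ratio exceeds 0. Between 9892 and 11195 genes were edited in a library, 8046 genes were edited in all 6, and their median EPR ranged from 0.00907 to 0.0161 over the libraries. The neuronal markers *Map2*, *Tubb3*, *Syn1*, *Snap25*, *Rbfox3* and *Nefl* were edited in all 6 libraries, as were 3 of 4 astrocyte markers (*Gfap*, *Aqp4* and *Slc1a3*). The summed EPR of the 6 neuronal markers ran from 0.130 to 0.161 under RPL10A-STAMP and from 0.105 to 0.136 under RPL22-STAMP, and that of the 4 astrocyte markers was 0.0996 to 0.131 and 0.0825 to 0.138. Of 4 oligodendrocyte markers, *Mbp* alone was edited in all 6 libraries and *Mog* and *Mag* were listed at 0 throughout, with summed EPR of 0.00358 to 0.0886 and of 0.00360 to 0.0532 in the same order. None of 4 microglial markers was edited in all 6, 3 of them (*P2ry12*, *Csf1r* and *Aif1*) were at 0 throughout, and their sum reached 0.0143 and 0.0364. Of 4 markers of dividing cells, *Mki67* and *Cdk1* were at 0 throughout, and the sum reached 0.0263 with RPL10A-STAMP and was 0 in every RPL22-STAMP library. The sums cover 6 markers for neurons and 4 for each other kind of cell, so they do not compare kinds of cell. The part of these cells in the results was not tested. In bulk RNA, fewer edited cells and fewer edits per cell cannot be told apart.

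Of the 70 motor genes, 36 were edited in all 6 libraries, which is 51.4%, against 36.1% of the listed protein-coding genes. Another 21 were edited in no library and 13 in 1 to 5 libraries. Their median EPR took values of 0.0118, 0.0128 and 0.0160 across the RPL10A-STAMP libraries (replicates 1 to 3) and 0.0101, 0.0144 and 0.0129 across the RPL22-STAMP libraries. Their level as a group was close to that of other genes, with a median of the mean EPR of 0.0136 against 0.0135 for all 8046 genes. The range ran from 0.00502 in *Dync2li1*, 0.00513 in *Dynlrb1* and 0.00546 in *Dctn1* to 0.0342 in *Klc2*, 0.0467 in *Dync2h1* and 0.0712 in *Dynlt3*.

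**Figure D1:**
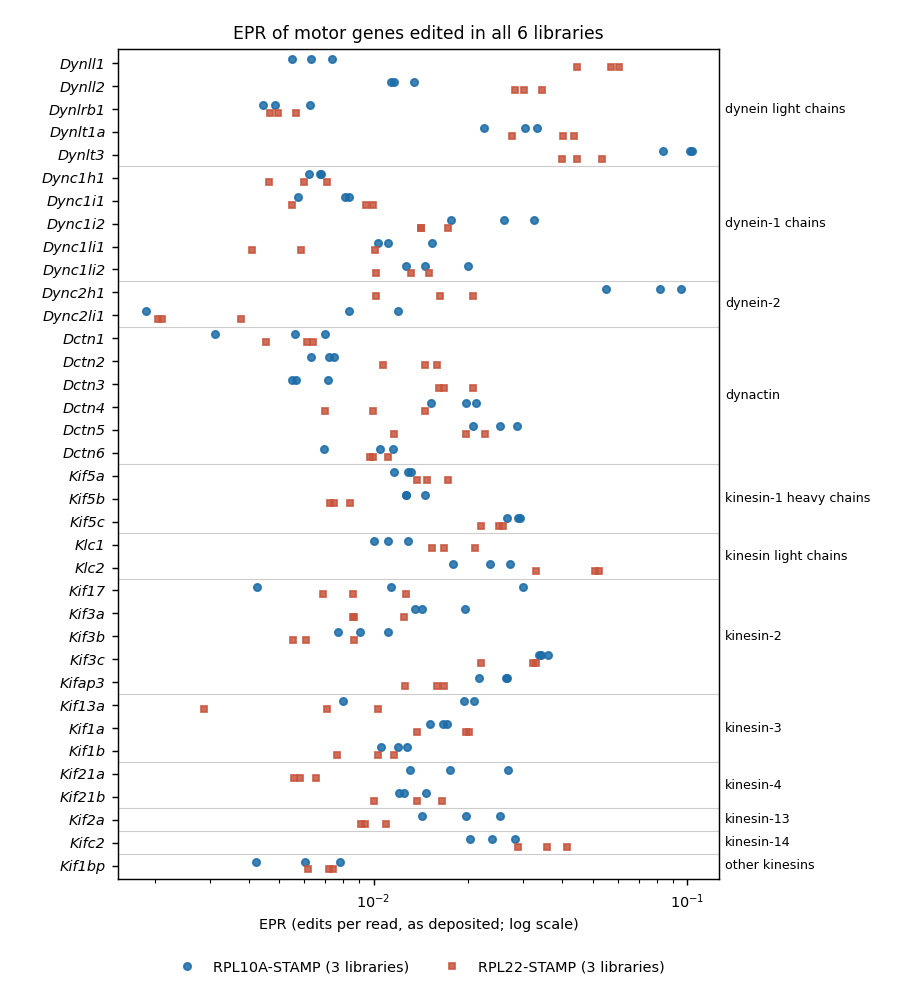
Deposited EPR (edits per read, log scale) of the 36 motor genes edited in all 6 libraries, with 1 point per library, circles for RPL10A-STAMP and squares for RPL22-STAMP, ordered by protein family. The RPL22-STAMP points of *Dynll1* lie between 0.0445 and 0.0606, far to the right of its RPL10A-STAMP points at 0.00547 to 0.00739, and *Dync2h1* and *Dynlt3* show the opposite order.

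After each library was scaled to its median gene, 10 of the 36 genes differed between the variants (limma on log2(EPR + 0.01), adjusted p under 0.05), where 14.3% of all tested genes did. Higher with RPL22-STAMP were 7 genes, against a background of 5.77% of tested genes: the dynein light chains *Dynll1* and *Dynll2*, the dynactin subunits *Dctn2* and *Dctn3*, the kinesin light chains *Klc1* and *Klc2*, and the kinesin *Kifc2*. Higher with RPL10A-STAMP were 3 genes, close to the background of 8.51%: the light chain *Dynlt3*, the dynein-2 heavy chain *Dync2h1* and the kinesin *Kif21a*. The other 26 did not pass the threshold, and 14 of the 36 had an unadjusted p under 0.05 (background 30.9%). The median log2 fold change (RPL10A-STAMP minus RPL22-STAMP) was -0.08 over the motor genes and -0.01 over all tested genes. In the deposited EPR, before scaling, all RPL10A-STAMP libraries lay above all RPL22-STAMP libraries in 12 of the 36 genes (background 28.2%), and the reverse held in 8 (background 6.21%). Without scaling, 3 genes were called in each direction, and *Dctn2* (limma adjusted p = 0.0984), *Klc1* (0.206), *Klc2* (0.0673) and *Kifc2* (0.231) were no longer called. The number of calls fell to 4 without RPL10A-STAMP replicate 2, to 4 without RPL10A-STAMP replicate 3 and to 6 without RPL22-STAMP replicate 3.

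**Figure D2:**
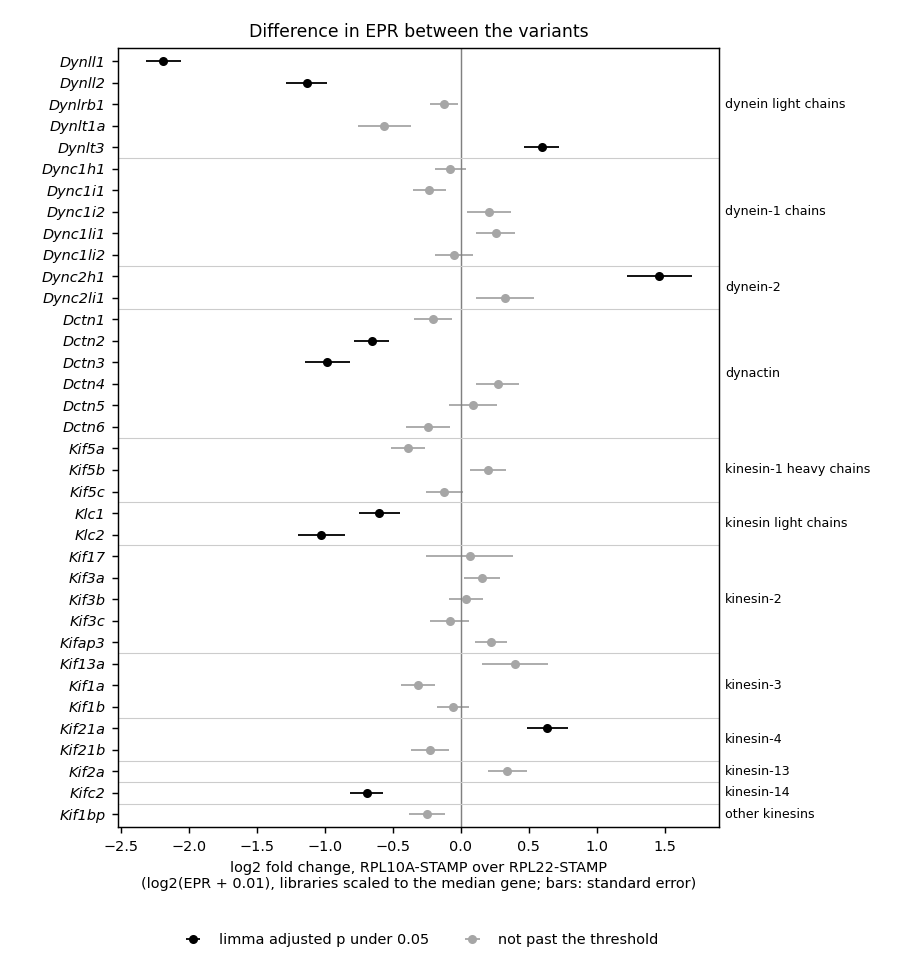
Log2 fold change between the variants (RPL10A-STAMP minus RPL22-STAMP) for the 36 motor genes edited in all 6 libraries, on the log2(EPR + 0.01) scale after scaling each library to its median gene, with standard errors as bars and genes past the limma threshold in black. The called *Dynll1*, *Dynll2*, *Dctn2*, *Dctn3*, *Klc1*, *Klc2* and *Kifc2* lie on the RPL22-STAMP side, down to -2.19 for *Dynll1*, and the called *Dynlt3*, *Kif21a* and *Dync2h1* on the RPL10A-STAMP side, at 0.59, 0.63 and 1.46.

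The largest difference among the motor genes was in *Dynll1* (ENSMUSG00000009013), on the minus strand of chromosome 5 from 115297110 to 115300999 (GRCm38). Its closest relative is *Dynll2* (ENSMUSG00000020483), on the minus strand of chromosome 11 from 87979525 to 87987533. Both encode the small light chain that binds the dynein intermediate chain and many proteins outside dynein. Their coding sequences have the same length, 267 bases, and 81.3% of positions are identical. The differences fall on 50 positions, and the longest identical stretch has 16 bases. The first 30 coding bases, all in exon 2 of each transcript, show how often the pair differs, with capitals at the 5 positions where the genes carry different bases (GENCODE transcripts, *Dynll1* from 115300615 to 115300644 and *Dynll2* from 87983974 to 87984003, minus strand).
Dynll1: atgtGCgaccggaaggcGgtgatcaaAaaT
Dynll2: atgtCTgaccggaaggcAgtgatcaaGaaC

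*Dynll1* had an EPR of 0.00629, 0.00739 and 0.00547 in the RPL10A-STAMP libraries and of 0.0445, 0.0606 and 0.0571 in the RPL22-STAMP libraries. This gave means of 0.00638 ± 0.000959 (SD, n = 3) against 0.0540 ± 0.00846 (SD, n = 3), an 8.47-fold higher EPR with RPL22-STAMP, and the groups did not overlap. The scaled log2 fold change was -2.19 (standard error 0.13, limma adjusted p = 0.00165), a scale that understates the change of low values because of the added 0.01. In each RPL10A-STAMP library *Dynll1* ranked in the lowest part of the 8046 genes, at percentiles 20.1, 19.5 and 9.77, and in each RPL22-STAMP library near the top, at percentiles 97.1, 96.7 and 96.7. It was called under each of 18 alternative settings. Of its runs of 50 exon bases, 16.6% have an exact copy elsewhere in the genome, spread over 21 chromosomes and most often on 7, 9 and 19, and the handling of such reads by the counting tool was not tested.

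*Dynll2* moved in the same direction by less. Its EPR was 0.0116, 0.0135 and 0.0113 with RPL10A-STAMP against 0.0283, 0.0301 and 0.0344 with RPL22-STAMP, again without overlap. The mean with RPL22-STAMP, 0.0309 ± 0.00310 (SD, n = 3), was 2.55-fold that with RPL10A-STAMP, 0.0121 ± 0.00116 (SD, n = 3), and the log2 fold change was -1.14 (standard error 0.15, limma adjusted p = 0.00537). No run of 50 bases of *Dynll2* is copied elsewhere. Its call was lost in 1 of 18 alternatives, with both the GC trend removed and the replicate number as a block (limma adjusted p = 0.0550).

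Within a library, the order of the pair turned over. The log2 ratio of *Dynll1* to *Dynll2* EPR was -0.88, -0.87 and -1.05 in the RPL10A-STAMP libraries and 0.65, 1.01 and 0.73 in the RPL22-STAMP libraries. *Dynll1* was thus the lower of the pair in every RPL10A-STAMP library and the higher in every RPL22-STAMP library. The mean log2 ratios, -0.93 ± 0.10 (SD, n = 3) and 0.80 ± 0.19 (SD, n = 3), differed by -1.73, a 3.32-fold change of the ratio that needs no scaling between libraries (two-sided exact permutation test over 20 labelings, p = 0.10, the smallest that 3 libraries against 3 allow).

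**Figure D3:**
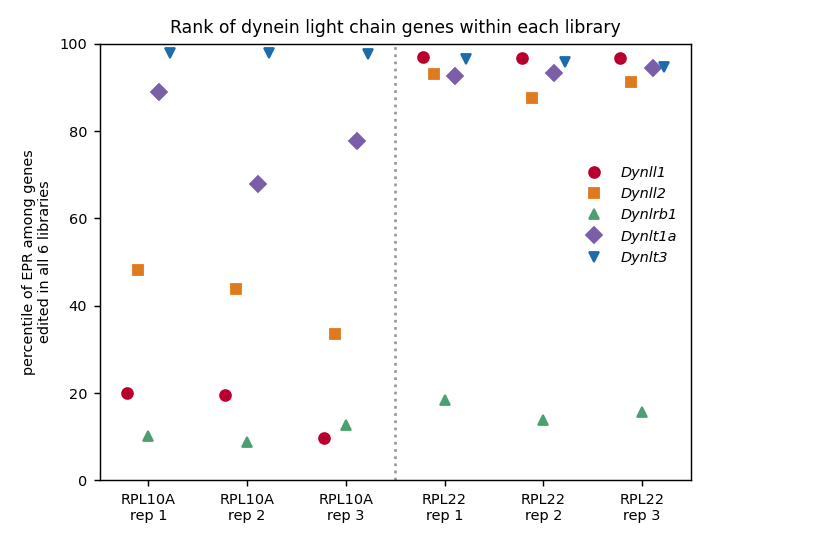
Percentile of the EPR of 5 dynein light chain genes among the 8046 genes edited in all 6 libraries, with 1 point per gene and library, the RPL10A-STAMP libraries left of the dotted line and the RPL22-STAMP libraries right of it. *Dynll1* stands at 9.77 to 20.1 on the left and at 96.7 to 97.1 on the right, while *Dynlrb1* stays below 20 and *Dynlt3* above 94 in every library.

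*Dynlt3*, a light chain of another family (X chromosome, 9654267 to 9663003, minus strand), had the highest mean EPR of the 36 genes and went the other way. Its EPR was 0.0838, 0.103 and 0.102 with RPL10A-STAMP against 0.0398, 0.0535 and 0.0446 with RPL22-STAMP, and the groups did not overlap. The means, 0.0964 ± 0.0109 (SD, n = 3) and 0.0460 ± 0.00694 (SD, n = 3), differed 2.10-fold, with a log2 fold change of 0.59 (standard error 0.13, limma adjusted p = 0.0281). In rank it hardly moved, from percentiles of 97.5 to 98.0 with RPL10A-STAMP to 94.8 to 96.5 with RPL22-STAMP. The call was lost without any 1 library other than RPL22-STAMP replicate 1 (limma adjusted p from 0.0644 to 0.0958), and with the trend with GC content removed it came to 0.17 (limma adjusted p = 0.447).

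The close relatives of *Dynlt3* form a cluster of near-identical genes on chromosome 17. Whether shared sequence affects their EPR was not tested. The first 30 coding bases show the likeness: *Dynlt1a*, *Dynlt1c* and *Dynlt1f* have the same bases, *Dynlt1b* has 1 other base and *Dynlt3* 16 others, in capitals where they differ from *Dynlt1a*.
Dynlt1a: atggaagacttccaggcctccgaggagact
Dynlt1b: atggaagacttccaggcctcAgaggagact
Dynlt1c: atggaagacttccaggcctccgaggagact
Dynlt1f: atggaagacttccaggcctccgaggagact
Dynlt3: atggaGgGGtAccaACGGCccTGCgaTGAG

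Over the whole coding sequence, *Dynlt1a* is 100% identical to *Dynlt1c* and *Dynlt1f*, 99.7% to *Dynlt1b* and 62.5% to *Dynlt3*. Of their runs of 50 bases, 77.3% in *Dynlt1a*, 83.2% in *Dynlt1b*, 96.1% in *Dynlt1c* and 93.1% in *Dynlt1f* have an exact copy elsewhere, against none in *Dynlt3*. In *Dynlt1a*, 14.6% of the exon bases also lie opposite those of *Gm26848* and *Tmem181a*. *Dynlt1a* was edited in all 6 libraries, at 0.0331, 0.0226 and 0.0303 with RPL10A-STAMP against 0.0276, 0.0402 and 0.0435 with RPL22-STAMP, which overlap (log2 fold change -0.56, limma adjusted p = 0.102). *Dynlt1c* was listed at 3.50, 0 and 1.25 with RPL10A-STAMP and at 1.75, 1.86 and 1.40 with RPL22-STAMP. A value above 1 means more edits than counted reads. *Dynlt1b* was at 0.0206, 0 and 0.120 against 0.0727, 0.0541 and 0.0517. *Dynlt1f* was listed at 0 in every RPL10A-STAMP library and at 0.0667, 0.0577 and 0 with RPL22-STAMP. These 3 genes were not tested, since at least 1 library is at 0.

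Of the roadblock light chains, the remaining kind, only *Dynlrb1* had values above 0, and they stayed low. *Dynlrb1* had an EPR of 0.00443, 0.00484 and 0.00625 with RPL10A-STAMP against 0.00466, 0.00567 and 0.00494 with RPL22-STAMP, which overlapped. Its log2 fold change of -0.13 had a 95% interval of -0.37 to 0.11, and the sign turned in 4 alternatives, without scaling among them. *Dynlrb2* was listed at 0 in all 6 libraries.

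The chains of dynein-1, the cytoplasmic dynein of axonal transport, gave no call in 5 genes tested, with log2 fold changes from -0.23 to 0.26. With 14.3% of all tested genes called, so few genes do not set this family apart. *Dync1h1*, the heavy chain that holds the motor, had an EPR of 0.00680, 0.00673 and 0.00620 with RPL10A-STAMP against 0.00465, 0.00710 and 0.00599 with RPL22-STAMP. Its libraries overlapped, and the log2 fold change was -0.08 (95% interval -0.34 to 0.19), which was 0.06 without scaling. The intermediate chains, which tie dynein to dynactin, stood apart in level, with a mean EPR of 0.0203 for *Dync1i2* and 0.00784 for *Dync1i1*. The log2 ratio of *Dync1i1* to *Dync1i2* averaged -1.76 ± 0.22 (SD, n = 3) in the RPL10A-STAMP libraries against -0.91 ± 0.43 (SD, n = 3) in the others, without overlap. For the light intermediate chains *Dync1li1* and *Dync1li2*, which bind adaptors, this ratio ran the other way, from -0.35 ± 0.16 (SD, n = 3) to -1.02 ± 0.40 (SD, n = 3), also without overlap. Of all pairs of tested genes, 32.9% did not overlap either. The exact permutation test gave p = 0.10 for each of these pairs, the smallest possible.

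The dynein-2 complex, which carries cargo back along cilia, held the strongest call on the RPL10A-STAMP side. *Dync2h1* (chromosome 9, 6928503 to 7184446, minus strand), its heavy chain, had an EPR of 0.0552, 0.0958 and 0.0818 with RPL10A-STAMP and of 0.0207, 0.0162 and 0.0102 with RPL22-STAMP. The lowest RPL10A-STAMP value lay above the highest RPL22-STAMP value, and the means, 0.0776 ± 0.0206 (SD, n = 3) and 0.0157 ± 0.00527 (SD, n = 3), differed 4.94-fold. The log2 fold change was 1.46 (standard error 0.24, limma adjusted p = 0.0113), and it was lost in 1 of 18 alternatives, with the GC trend removed and the replicate block together (limma adjusted p = 0.0638). *Dync2li1*, the light intermediate chain of this dynein, was at 0.00832, 0.0120 and 0.00187 against 0.00206, 0.00378 and 0.00211. Its libraries overlapped and its log2 fold change of 0.32 had a 95% interval of -0.18 to 0.82.

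All 6 dynactin genes of the set were edited in all 6 libraries, and 2 were called, both higher with RPL22-STAMP (background 5.77% of tested genes). *Dctn3* (chromosome 4, 41714798 to 41723170, minus strand), a subunit of the shoulder that joins the arm to the filament, had an EPR of 0.00717, 0.00564 and 0.00550 with RPL10A-STAMP and of 0.0167, 0.0162 and 0.0207 with RPL22-STAMP. The groups did not overlap, and the means of 0.00611 ± 0.000928 (SD, n = 3) and 0.0179 ± 0.00249 (SD, n = 3) differed 2.93-fold. The log2 fold change was -0.98 (standard error 0.16, limma adjusted p = 0.0117). Without RPL10A-STAMP replicate 2 its adjusted p was 0.0502 and without RPL10A-STAMP replicate 3 it was 0.0558 (limma).

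*Dctn2* (chromosome 10, 127266368 to 127281950, plus strand), dynamitin of the same shoulder, was at 0.00745, 0.00722 and 0.00630 with RPL10A-STAMP and at 0.0107, 0.0159 and 0.0146 with RPL22-STAMP, without overlap. The mean with RPL22-STAMP was 1.97-fold higher, and the log2 fold change was -0.66 (standard error 0.13, limma adjusted p = 0.0191). This call was lost without RPL10A-STAMP replicate 2 (limma adjusted p = 0.0718), RPL10A-STAMP replicate 3 (0.0793) or RPL22-STAMP replicate 3 (0.0568). *Dctn1*, which encodes the arm that binds dynein and microtubules, did not pass, at 0.00311, 0.00560 and 0.00702 against 0.00642, 0.00452 and 0.00611 (log2 fold change -0.20, 95% interval -0.53 to 0.12). The others were between -0.24 for *Dctn6* and 0.27 for *Dctn4*, and did not pass either.

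Kinesin-1, the main motor of transport out of the cell body, has light chains that bind cargo and heavy chains that walk. Both light chains tested, *Klc1* and *Klc2*, were called, and none of the 3 heavy chains was. Whether the light and heavy chains differ was not tested. The heavy chain *Kif5a* had a log2 fold change of -0.39 (standard error 0.12) against -0.60 (standard error 0.15) for *Klc1*, and *Kif5b* went the other way (0.20). With the GC trend removed, neither light chain was called. *Klc2* (chromosome 19, 5107746 to 5118560, minus strand) had an EPR of 0.0236, 0.0179 and 0.0273 with RPL10A-STAMP and of 0.0331, 0.0522 and 0.0510 with RPL22-STAMP. The groups did not overlap, the RPL22-STAMP mean was 1.98-fold higher, and the log2 fold change was -1.03 (standard error 0.17, limma adjusted p = 0.0119). With the GC trend removed it was -0.65 (limma adjusted p = 0.0587). *Klc1* (chromosome 12, 111758849 to 111807844, plus strand) was at 0.0111, 0.01003 and 0.0129 against 0.0154, 0.0168 and 0.0210, also without overlap. Its RPL22-STAMP mean was 1.56-fold higher and its log2 fold change was -0.60 (standard error 0.15, limma adjusted p = 0.0398). The *Klc1* call was lost without any 1 library other than RPL22-STAMP replicate 2 (limma adjusted p from 0.0716 to 0.127). Of the other light chains, *Klc3* was listed at 0 throughout and *Klc4* at 0.0213, 0 and 0.0364 with RPL10A-STAMP and at 0 in every RPL22-STAMP library.

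Of the 3 heavy chains *Kif5c* was the highest in every library, at 0.0267, 0.0288 and 0.0293 with RPL10A-STAMP against 0.0220, 0.0252 and 0.0258 with RPL22-STAMP. *Kif5a* was at 0.0116, 0.0129 and 0.0131 against 0.0138, 0.0172 and 0.0148, and *Kif5b* at 0.0126, 0.0127 and 0.0145 against 0.00750, 0.00728 and 0.00839. The deposited values of each of the 3 genes did not overlap between the variants. *Kif5a* was higher in RPL22-STAMP (background 6.21% of tested genes) and both others higher in RPL10A-STAMP (background 28.2%). After scaling, the log2 fold changes were -0.39 for *Kif5a* (limma adjusted p = 0.0835), -0.12 for *Kif5c* (95% interval -0.45 to 0.20) and 0.20 for *Kif5b* (95% interval -0.12 to 0.51). None passed, and of 18 alternatives only the removal of the length trend gave *Kif5a* a call (-0.49, limma adjusted p = 0.0465). The log2 ratio of *Kif5a* to *Kif5b* in the same library was -0.12, 0.02 and -0.15 against 0.88, 1.24 and 0.82, without overlap (background 32.9% of all gene pairs). The ratios lay around 0 with RPL10A-STAMP, and with RPL22-STAMP *Kif5a* was higher in every library, a difference of -1.07 between the means or 2.09-fold (exact permutation test, p = 0.10, the smallest possible). In *Kif5b*, 21.3% of the runs of 50 bases have an exact copy elsewhere in the genome.

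The kinesin-2 genes, whose products form motors of cilia and of axonal transport, were all edited in all 6 libraries. None of the 5 was called (background 14.3% of tested genes), with log2 fold changes from -0.08 for *Kif3c* to 0.22 for *Kifap3*. *Kif3a* was at 0.0136, 0.0142 and 0.0196 with RPL10A-STAMP against 0.00859, 0.0125 and 0.00866 with RPL22-STAMP (log2 fold change 0.16, 95% interval -0.15 to 0.47). The ratio of *Kif3a* to its partner *Kif3b* overlapped between the variants, with mean log2 ratios of 0.76 ± 0.16 (SD, n = 3) and 0.56 ± 0.07 (SD, n = 3; exact permutation test, p = 0.20). *Kif17*, a motor of dendrites, varied the most among replicates of these 5 genes, from 0.00424 to 0.03004 with RPL10A-STAMP. Of the exon bases of *Kif3c*, 40.7% lie opposite those of *1110002L01Rik* and *Gm48512*, and any effect on its EPR was not tested. The library kit was a stranded one, but the sources do not state whether counting used strand. In *Kif3c*, 12.8% of the runs of 50 bases also have an exact copy elsewhere in the genome.

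Of 7 kinesin-3 genes, 3 were edited in all 6 libraries and none was called (background 14.3% of tested genes). *Kif1a*, which carries synaptic vesicle precursors, had an EPR of 0.0151, 0.0171 and 0.0167 with RPL10A-STAMP against 0.0138, 0.0201 and 0.0197 with RPL22-STAMP, which overlapped (log2 fold change -0.32, limma adjusted p = 0.143). Its log2 ratio to *Kif1b* was 0.52, 0.52 and 0.39 against 0.86, 0.79 and 0.93, without overlap (background 32.9% of all gene pairs). *Kif13a* ranged from 0.00800 to 0.0209 and from 0.00288 to 0.0103, with a wide interval of the log2 fold change (-0.17 to 0.97). *Kif13b* missed the test by 1 library, as it was listed at 0 in RPL22-STAMP replicate 3 alone.

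*Kif21a* (chromosome 15, 90933276 to 91049948, minus strand), a kinesin-4 motor that restrains microtubule growth, was the third call on the RPL10A-STAMP side. It was at 0.0131, 0.0176 and 0.0269 with RPL10A-STAMP and at 0.00582, 0.00652 and 0.00558 with RPL22-STAMP, without overlap. The means, 0.0192 ± 0.00705 (SD, n = 3) and 0.00598 ± 0.000489 (SD, n = 3), differed 3.21-fold, with a log2 fold change of 0.63 (standard error 0.15, limma adjusted p = 0.0349). This was the least firm of the calls together with *Klc1*: whichever library was left out, it was lost (limma adjusted p from 0.0560 to 0.102). Its paralog *Kif21b* was at 0.0121, 0.0125 and 0.0147 against 0.010001, 0.0137 and 0.0165, which overlapped. *Kif21a* was the higher of the pair in every RPL10A-STAMP library (log2 ratios 0.11, 0.50 and 0.87) and the lower in every RPL22-STAMP library (-0.78, -1.07 and -1.56). The mean log2 ratios, 0.49 ± 0.38 (SD, n = 3) and -1.14 ± 0.40 (SD, n = 3), differed by 1.63, or 3.10-fold (exact permutation test, p = 0.10, the smallest possible).

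*Kifc2* (chromosome 15, 76659858 to 76668196, plus strand), a kinesin of the minus-end-directed kinesin-14 family, was at 0.0203, 0.0238 and 0.0282 with RPL10A-STAMP and at 0.0290, 0.0413 and 0.0358 with RPL22-STAMP. The groups did not overlap, but the closest values were 0.0282 and 0.0290, and the means differed 1.47-fold. The log2 fold change was -0.70 (standard error 0.12, limma adjusted p = 0.0139), and it was lost without RPL10A-STAMP replicate 2 (limma adjusted p = 0.0599) or RPL10A-STAMP replicate 3 (0.0566). *Kif2a*, a kinesin-13 that takes microtubules apart, was at 0.0143, 0.0253 and 0.0197 against 0.00914, 0.0110 and 0.00936 and did not pass (log2 fold change 0.34, limma adjusted p = 0.155). Of its exon bases, 19.2% lie opposite *Dimt1*. *Kif1bp* meets the naming rule but encodes a protein that binds kinesins and is no motor, and it was not called either (log2 fold change -0.25).

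The mitotic kinesins were nearly without edits. Of 12 such genes, among them *Kif11*, *Kif18a*, *Kif20b*, *Kif23* and *Kif2c*, none was edited in all 6 libraries, 9 were edited in none and 3 in 1 library each (*Kif4* in RPL22-STAMP replicate 2, *Kif11* in RPL10A-STAMP replicate 2 and *Kif15* in RPL10A-STAMP replicate 3). Of the other 58 motor genes, 36 were edited in all 6 libraries. A value of 0 throughout was not particular to the mitotic genes. Among all motor genes 21 were edited in no library, and *Kif7*, *Kif26b*, *Klc3* and *Dynlrb2* are examples that are not mitotic. The depth of these genes is unknown, so a value of 0 sets no limit on their editing.

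Of 13 pairs of related genes, 11 had a ratio in every library, and in 9 of them the ratios of the variants did not overlap, where 32.9% of all pairs of the 8046 tested genes did not. No p below 0.10 was possible for any pair, and after Benjamini-Hochberg adjustment over the 11 pairs the lowest p was 0.122, so none passed. The pairs share genes in kinesin-1 and are not independent there. The ratios were not adjusted for the GC content of the transcripts, which differs within pairs. It was 53.8% in *Kif5a* and 41.1% in *Kif5b*, 47.1% in *Kif21a* and 56.7% in *Kif21b*, and 49.3% in *Dynll1* and 53.7% in *Dynll2*. In *Dync1i1* and *Dync1i2* it was 51.2% and 43.4%, and in *Dync1li1* and *Dync1li2* 48.4% and 47.0%. The part of GC content in the pair ratios was not tested. The 2 pairs that changed order inside the libraries completely were *Dynll1* with *Dynll2* and *Kif21a* with *Kif21b*, singled out after their values were seen.

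**Figure D4:**
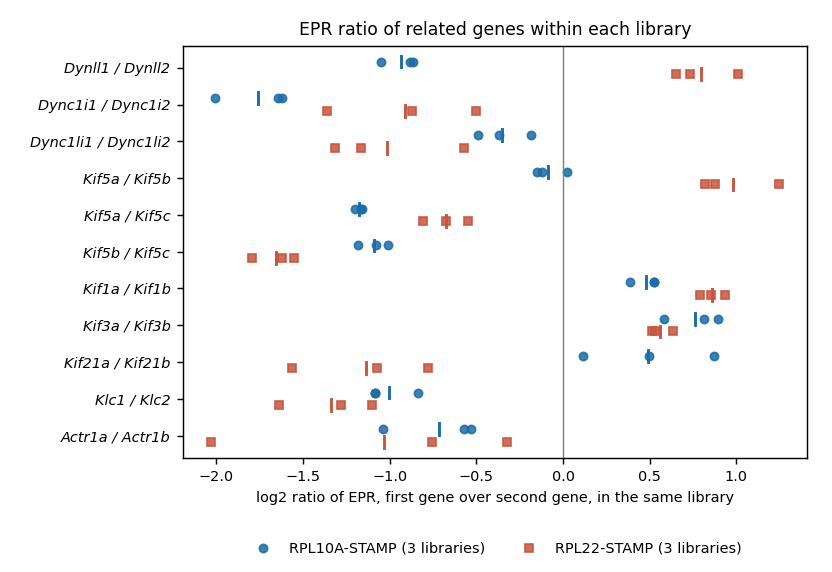
Log2 ratio of EPR between related genes of the same library for 11 pairs, with circles for the RPL10A-STAMP libraries, squares for the RPL22-STAMP libraries and a vertical bar at the mean of each 3. The points of *Dynll1* over *Dynll2* lie at -1.05 to -0.87 and at 0.65 to 1.01 on either side of 0, and those of *Kif3a* over *Kif3b* and *Actr1a* over *Actr1b* overlap.

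The genes called in each direction differed in base composition. The fold change that sorted them fell with GC content over all tested genes, so this gap is not separate from that trend. The transcripts of the 3 genes called higher with RPL10A-STAMP had a GC content of 38.9% to 47.1% (median 43.5%), those of the 7 called higher with RPL22-STAMP 49.3% to 60.4% (median 55.4%), and those of the 26 not called 41.1% to 60.1% (median 49.1%). Across the 36 genes the log2 fold change fell with GC content (Spearman's rho -0.708), as it did across 8039 tested genes (rho -0.467). These are descriptions across genes of the same 6 libraries, not independent replicates. In single libraries the EPR of the motor genes had a rho with GC content of -0.393, -0.524 and -0.251 for RPL10A-STAMP and of 0.0342, 0.0278 and 0.201 for RPL22-STAMP, where the first and second are close to 0. Over all tested genes it was -0.309, -0.328 and -0.348 for the former and -0.0215, 0.0128 and 0.0423 for the latter. With the number of C per kb it was weaker, at -0.571 across the 36 genes, and with transcript length it was 0.233. *Dynll1*, at a GC content of 49.3%, lies far below the other motor genes of similar composition. Once the trend with GC content was removed from each library, *Dynll1*, *Dynll2*, *Dctn3* and *Dync2h1* were called and the other 6 were not, and the median log2 fold change of the motor genes was 0.01. The 6 lost calls moved by different amounts. *Dynlt3* went from 0.59 to 0.17 (limma adjusted p = 0.447), *Klc1* from -0.60 to -0.32 (0.220), *Kifc2* from -0.70 to -0.33 (0.146), *Dctn2* from -0.66 to -0.39 (0.0992) and *Klc2* from -1.03 to -0.65 (0.0587), whereas *Kif21a* stayed near its value, from 0.63 to 0.56 (0.0635).

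**Figure D5:**
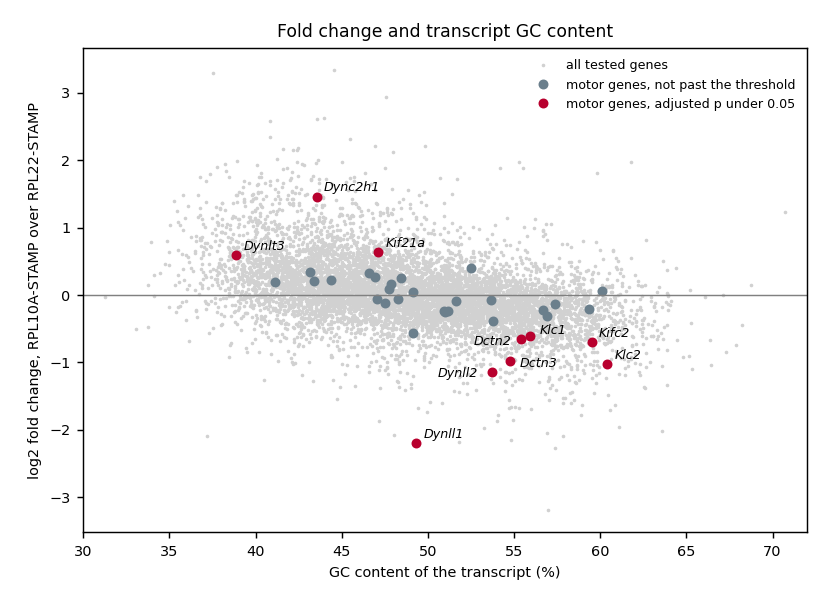
Log2 fold change between the variants (RPL10A-STAMP minus RPL22-STAMP) against the GC content of the transcript (percent), with grey points for all tested genes, blue-grey points for motor genes not past the threshold and red points for the 10 called. The red points run from *Dynlt3* at 38.9% and 0.59 to *Klc2* at 60.4% and -1.03, and *Dynll1* stands apart at 49.3% and -2.19.

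Beside the motors, 38 genes of the same transport machinery were examined: other dynactin subunits, dynein regulators and adaptors, and proteins that link kinesins to mitochondria and vesicles. Of these, 31 were edited in all 6 libraries and 4 were called, which is 12.9% of those tested and near the background. *Rhot2*, a mitochondrial anchor for motors, was at 0.00897, 0.0115 and 0.0153 with RPL10A-STAMP against 0.0217, 0.0274 and 0.0169 with RPL22-STAMP (log2 fold change -0.79, limma adjusted p = 0.0230). *Ndel1*, a dynein regulator, was at 0.00655, 0.00426 and 0.01001 against 0.0108, 0.0198 and 0.0147 (-0.75, limma adjusted p = 0.0230), and *Mapk8ip2*, a scaffold that binds kinesin light chains, at 0.00964, 0.0136 and 0.0135 against 0.0180, 0.0198 and 0.0238 (-0.70, limma adjusted p = 0.0205). *Bicd1*, a dynein adaptor, went the other way, at 0.0186, 0.0275 and 0.0271 against 0.00643, 0.00876 and 0.0129 (0.60, limma adjusted p = 0.0420). None of the 4 overlapped between the variants in deposited EPR (background 28.2% with RPL10A-STAMP above and 6.21% with RPL22-STAMP above). Each lost its call without any 1 of 5 libraries. The exception was RPL22-STAMP replicate 3 for *Rhot2* and *Bicd1*, RPL22-STAMP replicate 1 for *Ndel1* and RPL22-STAMP replicate 2 for *Mapk8ip2*, and the adjusted p without another library reached 0.0798, 0.128, 0.0756 and 0.0760 in that order (limma). The other 27 did not pass, and the median log2 fold change of the 31 was -0.06. In the dynactin filament, *Actr1a* and *Actr1b* had log2 fold changes of -0.01 and -0.18, and the ratio of the pair overlapped between the variants.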

How the data were processed

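The 6 bulk RNA-seq libraries, 3 per variant, were processed by the authors with cutadapt for trimming, STAR for alignment against mm10, SAILOR for C-to-U edits and featureCounts for the reads of each gene. They deposited EPR, the ratio of edits to reads per gene, with no normalization between libraries. Library totals cannot be recovered from this ratio. The paper states a number of reads sequenced per sample, but the reads of each gene are unknown, and no counting interval could be given. The gene annotation used by the authors is not given in the sources used here. Gene names, transcripts, GC content and coordinates came from GENCODE mouse release M21 (GRCm38), in which 31011 of 31053 identifiers were found. The motor genes and all lists were chosen with earlier results of these data known.

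Scaling set the median of every library over the 8046 genes that all 6 libraries edited to a common value, the geometric mean of those medians. These genes were then fitted as log2(EPR + 0.01) with limma 3.58.1 in R 4.3.3 (variance trend, no covariates, Benjamini-Hochberg over all 8046, threshold 0.05), and the script was tested on simulated data. Ratios of related genes were compared by exact permutation. Exact copies were searched as runs of 50 bases. Named genes were all called members, all dynein light chains, *Kif5a*, *Kif5b*, *Kif5c*, *Kif1a*, *Kif3a*, *Dync1h1*, *Dctn1*, the 3 highest and 3 lowest members by mean EPR, called genes of the transport list and both genes of each pair. Other names were chosen after their values were seen. Libraries with the same replicate number were not treated as pairs (correlations of deviations 0.0437, 0.0464 and -0.00546). The 18 alternatives covered the tested genes, pseudocount, scaling, replicate block, GC and length trends, variance trend and each library left out. Tests outside limma ran in scipy 1.17.1 and sequences were handled with Biopython 1.88, under Python 3.11.15.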

Additional observations from a re-analysis of the deposited data

How the results depend on the processing

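All 10 called motor genes kept their sign under the 18 alternatives that were run, and *Dynll1* kept its call in 18, *Dynll2* and *Dync2h1* in 17, *Dctn3* and *Klc2* in 15, *Kifc2* in 13, *Dctn2* in 10, *Dynlt3* in 8, and *Klc1* and *Kif21a* in 6. The cause of lost calls was not tested, and the fits that leave out a library also have fewer samples. The reads behind each EPR are unknown, so how far shallow coverage limits the genes with few edits was not tested.

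Of motor genes, 10 were called (3 towards RPL10A-STAMP and 7 towards RPL22-STAMP), and of transport genes 4. With genes edited in at least 3 libraries 1 was higher with RPL10A-STAMP, and with genes edited in at least 1 library 6 were called, 1 of them higher with RPL10A-STAMP, and 0 transport genes. Among all genes these filters called 754 and 569, against 1149. Without scaling 6 were called, 3 of them higher with RPL22-STAMP, and 2 transport genes, as the median over all genes moved from -0.01 to 0.18 and 88.1% of all calls, against 59.6%, were higher with RPL10A-STAMP. With the replicate number as a block 6 were called, 1 of them higher with RPL10A-STAMP, 0 transport genes and 603 genes in all. The calls lost with this block were *Dctn2* (limma adjusted p = 0.0627), *Dynlt3* (0.0698), *Klc1* (0.0695) and *Kif21a* (0.0812), and no other call of a motor gene changed. The correlations in deviation were near 0, and the block says nothing of paired cultures. With the GC trend removed 4 were called, 1 and 3 by direction, 1 transport gene and 663 genes. With the GC trend removed and the replicate block 1 was called, 0 towards RPL10A-STAMP and 1 towards RPL22-STAMP, 0 transport genes and 227 genes. With 1 library left out, 4 to 8 motor genes were called, 1 to 2 towards RPL10A-STAMP and 3 to 7 towards RPL22-STAMP, and 0 to 2 transport genes. The lowest count among all genes, 369, came without RPL10A-STAMP replicate 3.

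The median log2 fold change of the motor genes, -0.08, was -0.136 with a pseudocount of 0.001, -0.0283 with 0.05, -0.144 with none, -0.126 with scaling to the 75th percentile, 0.146 without scaling, 0.0067 with the GC trend removed, with or without the replicate block, -0.147 with the length trend removed, and -0.136 to -0.054 with 1 library left out.

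Signs under the alternatives were followed for the genes named by rule, and they turned in genes that were not called. Tested genes outside that list, such as *Kif3c*, were not followed. Without scaling, log2 fold changes were 0.157 for *Actr1a*, 0.033 for *Actr1b*, 0.062 for *Dync1h1*, 0.169 for *Dync1li2*, 0.0069 for *Dynlrb1*, 0.135 for *Kif1b* and 0.158 for *Kif5c*. With the GC trend removed, with or without the replicate block, they were 0.206 for *Actr1a*, 0.069 for *Actr1b*, 0.157 for *Dctn1*, 0.130 for *Dync1h1*, -0.035 for *Dync1i2*, 0.192 for *Dynlrb1*, 0.073 for *Kif21b* and -0.139 for *Kif5b*. With the length trend removed they were 0.028 for *Actr1a*, 0.064 for *Dynlrb1* and -0.044 for *Kif3b*. *Actr1a* was at 0.0031 with a pseudocount of 0.001 and 0.010 with none. With 1 library left out, *Actr1a* ranged from -0.143 to 0.090, *Dync1li2* from -0.106 to 0.052, *Kif3b* from -0.014 to 0.112 and the log2 ratio of *Actr1a* to *Actr1b* from -0.176 to 0.678 between variants.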
